A study of Homo sapiens with 6 samples.

Results

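The 43 genes described here are interferon-stimulated and antigen presentation genes, namely nucleic acid sensors, STAT and IRF factors, antiviral effectors and MHC class I genes. They were taken by gene symbol from the 25445 rows of a count table. All 43 were in the table and all 43 were among the 15957 rows tested. The table came from MHCC-97H, an established human liver cancer cell line, exposed for 16 h to 10 μM of compound 6j or to solvent. Compound 6j was made from sophoridine, an alkaloid of plants. RNA sequencing was done on 3 libraries of 6j treated cells and 3 libraries of non-treated cells, numbered replicates 1, 2 and 3 in each group. The labels name no interferon or virus in either group, and all libraries came from 1 cell line. The labels do not say whether the libraries came from separate cultures, so p-values measure only the spread between these libraries, which may be technical.

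Interferons are secreted when a cell senses foreign or misplaced nucleic acid. RIG-I, MDA5 and Toll-like receptors are such sensors, and IRF3 and IRF7 then switch on interferon genes. Interferon binds its receptor, JAK kinases phosphorylate STAT proteins, and a complex with STAT2 and IRF9 binds a promoter element named ISRE in front of interferon-stimulated genes. Their products degrade or bind foreign RNA, block viral entry, and load peptides onto MHC class I for T cells. Liver cells and tumours derived from them are known to respond to type I and type III interferons.

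Levels are given as CPM, the count scaled to the TMM normalized library size, and as CPM per kb of exon where genes are compared with each other. Where 3 values are given for a group, they are those of replicates 1, 2 and 3 in this order. Total counts were 31533403 to 38018349 per library. Of the liver markers, ALB, AFP, APOA1, APOB, TTR and SERPINA1 were at or near 0 in all 6 libraries, while KRT8 (369 to 653 CPM) and KRT18 (320.0 to 456 CPM), keratins of simple epithelia, were well measured. KRT8 fell, with a log2 fold change of −0.58 (edgeR, adjusted p = 0.0211). HNF4A, a liver transcription factor, did not exceed 1.4 CPM. PTPRC, CD3E and MS4A1, which define leukocytes and their T and B cell subsets, were at 0 in all 6 libraries. The summed level of the 8 immune markers was 40.4 to 70.9 CPM in non-treated and 42.6 to 53.1 CPM in 6j treated cells and was almost entirely CD68. The 5 stromal and endothelial markers summed to 216 to 276 CPM in non-treated and 203 to 273 CPM in 6j treated cells, nearly all of it COL1A1. COL1A2 was at 0. Fewer cells of a state and less RNA per cell cannot be told apart in such bulk libraries.

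The cells expressed most of the pathway without added interferon. Over the 43 genes the non-treated mean ran from 0.294 CPM per kb for MX1 to 1035 CPM per kb for IFI6, with a median of 36.8 CPM per kb. The 5 highest were IFI6, ISG15 (899 CPM per kb), IFITM1 (503 CPM per kb), BST2 (449 CPM per kb) and IFITM3 (441 CPM per kb). All 5 encode antiviral proteins, and B2M, the light chain of MHC class I, followed with 281 CPM per kb. At the other end, MX1, TLR3 (0.503 CPM per kb), MX2 (2.7 CPM per kb) and IRF9 (2.71 CPM per kb) were low. The lowest count of any of the 43 genes in a library was 18. Within the non-treated group the highest library was a median of 2.98-fold above the lowest over the 43 genes, against 1.22-fold over all rows.

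**Figure D1:**
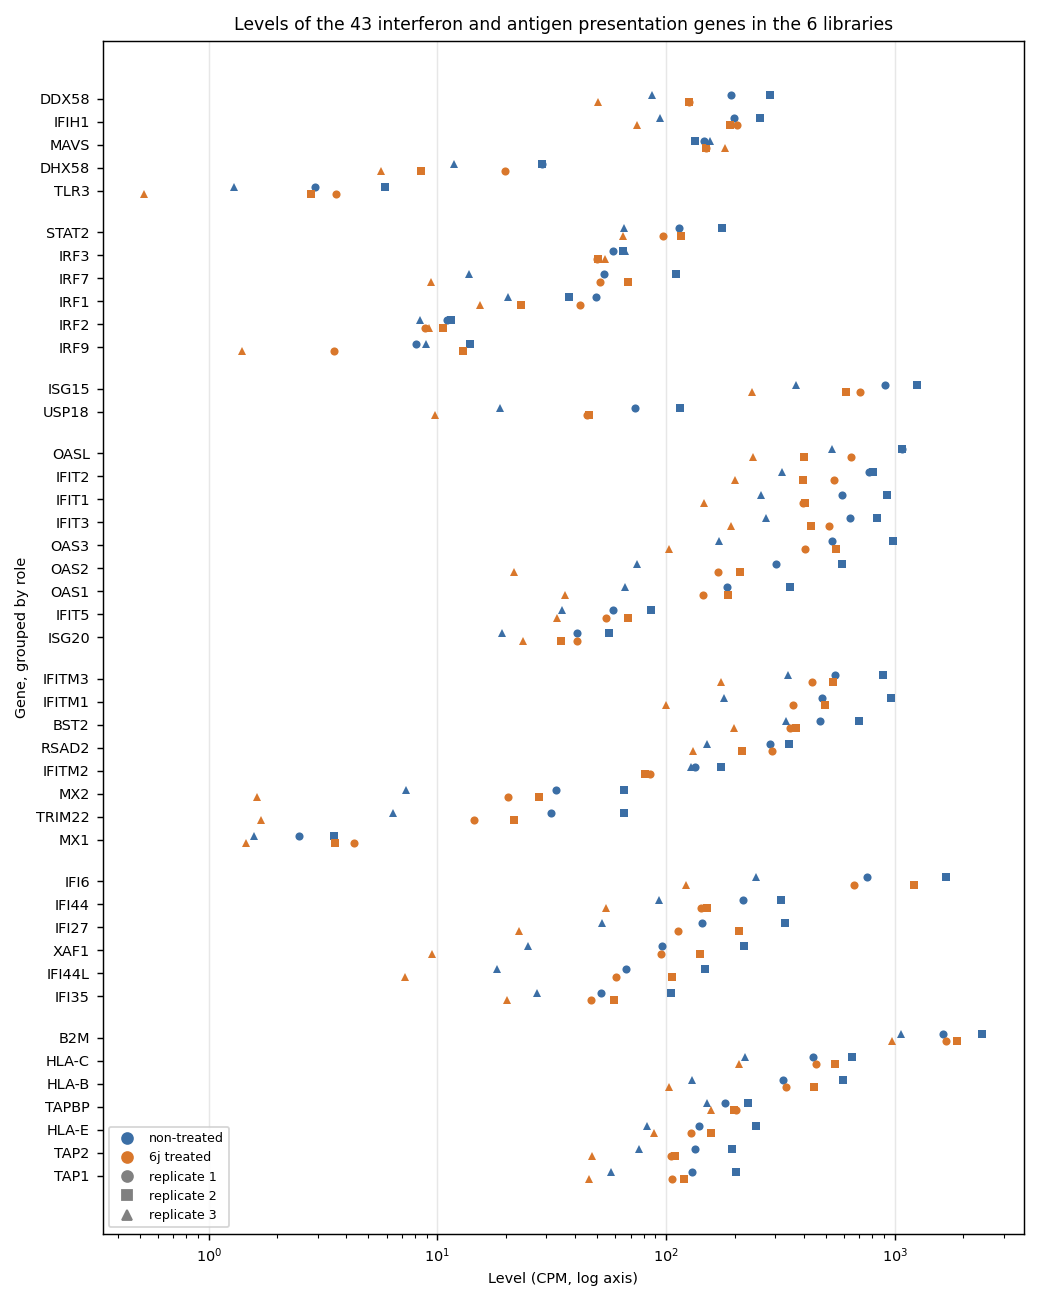
Level of each of the 43 genes in the 6 libraries, in CPM on a log axis, with genes grouped by role and ordered by their non-treated mean within a role. Blue points are non-treated and orange points 6j treated libraries, and circles, squares and triangles are replicates 1, 2 and 3. In 39 of the 43 genes the triangle was the lowest point of its group in both groups, and the 2 groups overlapped in all but IRF3 and IFITM2.

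Promoter windows from RefSeq (GRCh38.p14), 250 bases before to 50 bases after a start site, could be matched for 31 of the 43 genes, DDX58 under its symbol RIGI. The core of the ISRE was searched as GAAANNGAAA on both strands, counting overlapping copies. It stood in a window of 21 of the 31 genes (67.7%) and in 647 of the 15374 genes of the count table with a window (4.21%). The GAS element of STAT dimers, searched as TTCNNNGAA, which reads the same on both strands, stood in a window of 10 of the 31 genes (32.3%) and in 9.04% of all genes with a window. By window rather than gene, the ISRE core was in 25 of 39 windows of the 43 genes (64.1%) and in 688 of 21644 windows (3.18%). The windows of the 5 genes with the highest levels are shown because all 5 hold the core, which is in capitals. The strand given is that of the gene, and the sequences run 5′ to 3′ along it.
IFI6, chr1:27672143-27672442, strand −: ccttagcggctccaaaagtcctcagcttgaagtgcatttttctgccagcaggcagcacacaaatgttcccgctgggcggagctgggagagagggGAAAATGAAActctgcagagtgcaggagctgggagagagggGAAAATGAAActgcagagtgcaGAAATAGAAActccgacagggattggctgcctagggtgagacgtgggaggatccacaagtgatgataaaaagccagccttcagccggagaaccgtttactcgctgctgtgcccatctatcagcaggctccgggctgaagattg
ISG15, chr1:1013247-1013546, strand +: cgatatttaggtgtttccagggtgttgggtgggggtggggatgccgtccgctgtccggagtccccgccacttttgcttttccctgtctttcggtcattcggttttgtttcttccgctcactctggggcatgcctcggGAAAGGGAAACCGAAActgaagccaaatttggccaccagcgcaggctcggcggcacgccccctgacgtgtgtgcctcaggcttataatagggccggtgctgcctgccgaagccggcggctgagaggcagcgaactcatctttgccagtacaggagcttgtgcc
IFITM1, chr11:313790-314089, strand +: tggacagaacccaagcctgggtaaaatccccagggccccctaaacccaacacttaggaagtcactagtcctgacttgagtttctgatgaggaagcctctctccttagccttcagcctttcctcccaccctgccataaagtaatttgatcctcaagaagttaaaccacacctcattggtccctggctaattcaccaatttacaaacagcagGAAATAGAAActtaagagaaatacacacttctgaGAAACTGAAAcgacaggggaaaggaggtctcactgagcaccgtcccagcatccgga
BST2, chr19:17405581-17405880, strand −: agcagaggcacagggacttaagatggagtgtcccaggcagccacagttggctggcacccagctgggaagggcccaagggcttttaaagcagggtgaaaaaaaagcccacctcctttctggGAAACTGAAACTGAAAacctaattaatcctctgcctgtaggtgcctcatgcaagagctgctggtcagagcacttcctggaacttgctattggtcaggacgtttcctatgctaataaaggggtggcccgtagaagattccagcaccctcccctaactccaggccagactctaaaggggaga
IFITM3, chr11:320811-321110, strand −: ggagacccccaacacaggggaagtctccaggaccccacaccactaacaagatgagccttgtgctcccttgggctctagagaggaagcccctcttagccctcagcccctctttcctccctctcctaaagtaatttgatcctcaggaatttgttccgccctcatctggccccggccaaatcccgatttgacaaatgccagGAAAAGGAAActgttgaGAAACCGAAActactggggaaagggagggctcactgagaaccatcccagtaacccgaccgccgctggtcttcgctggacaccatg

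IFI6 held 3 cores, the first starting 156 bases before the start site. ISG15 held 2 overlapping cores whose first bases lay 113 and 107 bases before it, and BST2 held an overlapping pair at 130 and 124 bases. In IFITM1 the cores began 40 and 6 bases, and in IFITM3 52 and 35 bases before the start site. With 6j these 5 genes were measured at 770.5, 551, 295, 274 and 283 CPM per kb, in the order of the sequences. A match is only a run of letters, and binding was not measured.

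The comparison of 6j treated with non-treated cells asks whether 6j moved these genes. Without regard to the replicate numbers, 40 of the 43 genes had a lower and 3 a higher estimate with 6j, and the median log2 fold change was −0.54, against 0.0046 over all rows. The median rested on single libraries and was −0.0414 without non-treated replicate 2, where 24 genes had lower estimates. Leaving out non-treated replicate 3 gave −0.91, and leaving out 6j replicates 2 or 3 gave −0.84 and −0.21. Calls needed a change of more than 1.5-fold and an adjusted p under 0.05. Only IFITM2 was called, and it fell, while 1.12% of all rows were called lower. It was also the only gene of the 43 with an adjusted p under 0.05, which 9.16% of all rows had in either direction. IFITM2 and IRF3, both lower, were the 2 genes with an unadjusted p under 0.05 from edgeR. Of the 15957 rows tested, 2096 had this in the higher and 2079 in the lower direction. DESeq2 likewise called IFITM2 alone, with 1.78% of its rows called lower, and gave IRF3 an adjusted p of 0.0288. The median standard error was 0.61 for the 43 genes and 0.14 for all rows. In 2 of the 43 genes, IRF3 and IFITM2, the groups did not overlap and 6j was below, as in 15.8% of all rows.

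The replicate numbers differed from each other in the same way in both groups. Among the 43 genes, replicate 2 was above replicate 3 in 41 genes in either group, by a median of 2.98-fold in non-treated and 2.58-fold in 6j treated cells. Replicate 3 was the lowest library of its group in both groups in 39 genes. The full order of replicate 2 above 1 above 3 held in both groups in 25 genes, and in 6.48% of all rows. In 39 genes non-treated replicate 3 was below 6j treated replicate 1. The summed level of the 43 genes was 12351, 18773 and 6076 CPM in the non-treated and 10106, 11189 and 4265 CPM in the 6j libraries. Within each number the 6j library was the lower one. Across the 43 genes, deviations from the group means of same-numbered libraries had correlations of 0.779, 0.842 and 0.887. Pairs with unlike numbers ran from −0.902 to 0.584, the highest being non-treated replicate 2 with 6j replicate 1. Over the 15816 rows outside these genes and the lists below, same-numbered libraries had correlations of 0.167, 0.16 and 0.283. Pairs with unlike numbers ran from −0.203 to 0.0646 over those rows. Deviations cancel out within a group, so positive correlations of same-numbered pairs push those of the other pairs down. Neither the labels nor the methods say what a number stands for, so the pairing used below rests on these same data.

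Set against the library of the same number, 33, 41 and 38 of the 43 genes were lower with 6j in replicates 1, 2 and 3. The median log2 differences were −0.31, −0.74 and −0.68, while the medians over all rows were −0.0039, 0 and 0.0022. In 31 genes 6j was below in all 3 numbers, against 28.7% of all rows, and MAVS alone was above in all 3. The 43 genes varied together between libraries. Counts over them, here and below, therefore come from 3 pairs of libraries and are not 43 independent results. In edgeR's fit with a block for the number, 17 of the 43 genes were called and all 17 fell, against 2.46% of all rows called lower. They fell between 1.51-fold and 2.80-fold. Adjusted p was under 0.05 in 22 genes, all lower, against 13.9% of all rows lower and 26.9% in either direction. The median log2 fold change was −0.62 and the median standard error 0.12, against 0.0037 and 0.10 over all rows. DESeq2 with the block, chosen after seeing the data, called 20, all lower, against 2.39% of its rows.

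With each replicate number left out of both groups in turn, also chosen after seeing the data, 25, 13 and 14 of the 43 genes were called without replicates 1, 2 and 3, all of them lower. Of all rows, 436, 236 and 337 were called lower in the same fits, against 393 of 15957 (2.46%) with the block and all libraries. Low counts were filtered anew in each of these fits, and their own shares are not given here. Of the 17 genes, 10 were called in all 3 of these fits, namely BST2, DDX58, IFI44, IFIT1, IFIT2, IFITM1, IFITM2, OAS1, TRIM22 and USP18. IFIT3, IFITM3, ISG15, OAS3 and TAP2 lost the call without replicate 2. DHX58, IFIT3, IFITM3, ISG15 and OASL lost it without replicate 3.

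**Figure D2:**
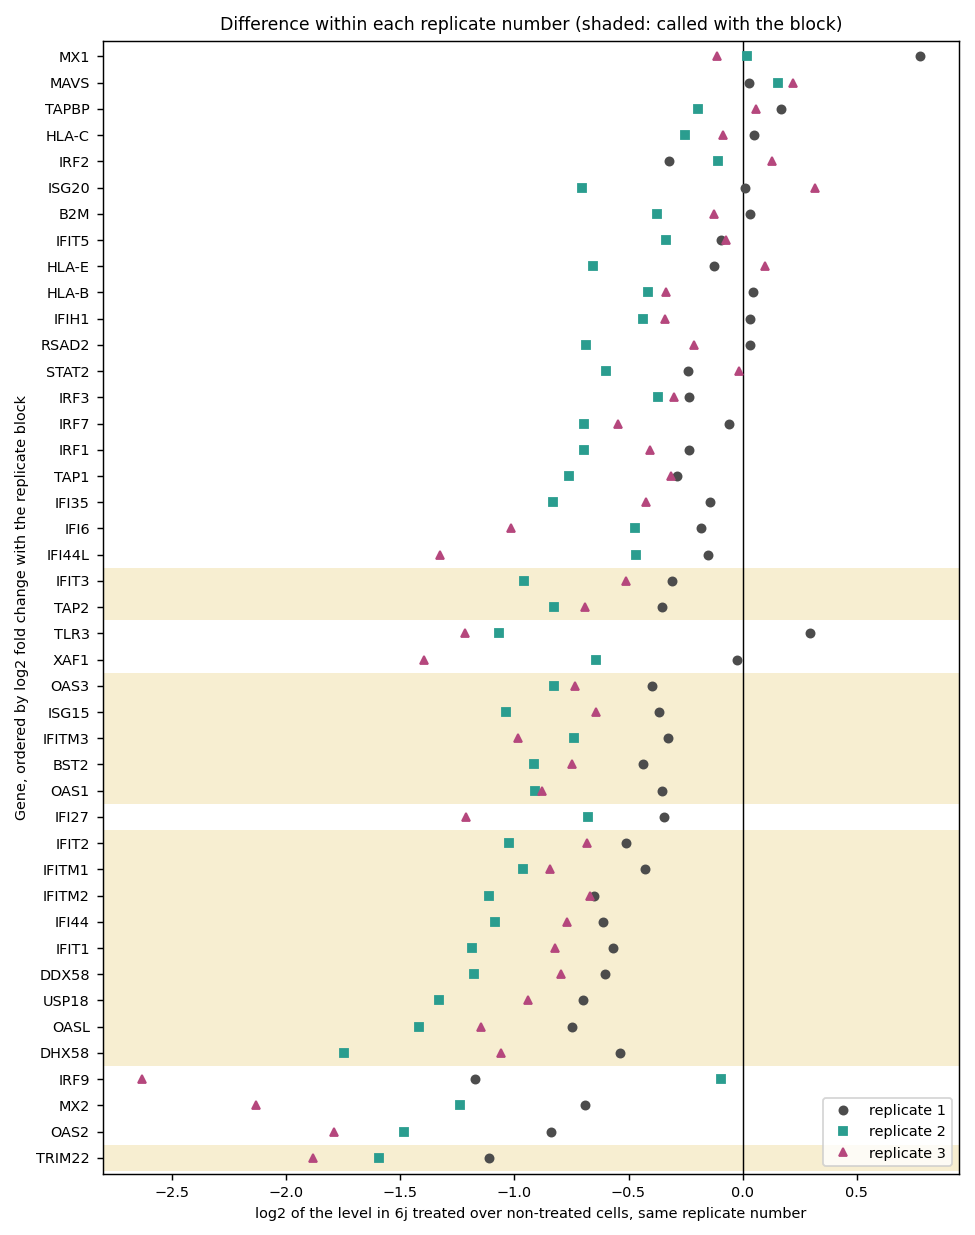
Log2 of the level with 6j over the non-treated level of the same replicate number, for each of the 43 genes, with genes ordered by edgeR's log2 fold change with the replicate block. Each gene has 1 point for each replicate number, shading marks the 17 genes called with the block, and 0 is no difference. The points of the shaded genes lie below 0 in all 3 numbers, and replicate 1 is the nearest to 0 in each of them.

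**Figure D3:**
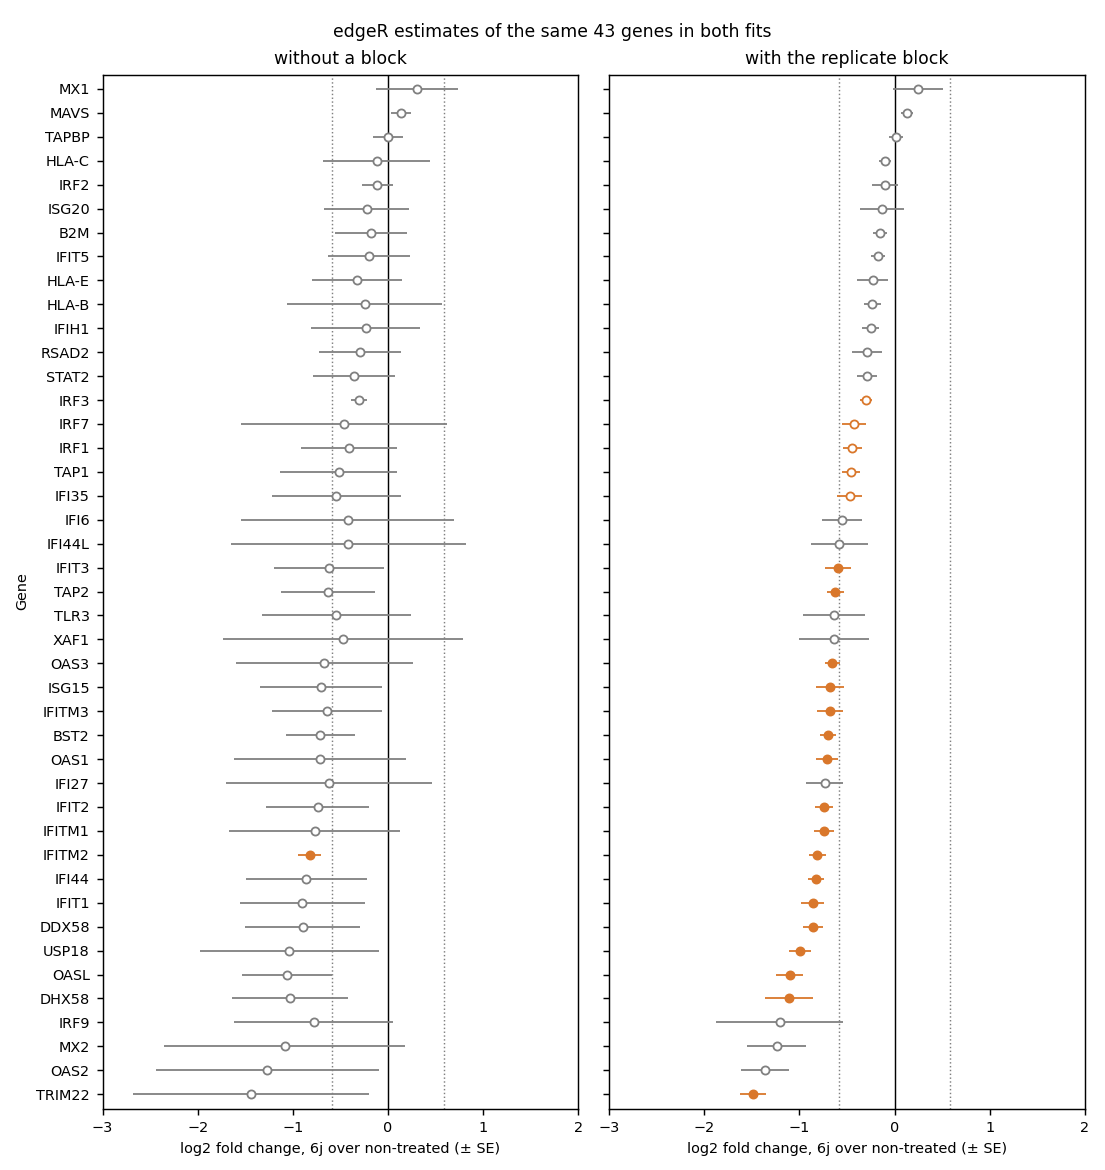
edgeR's log2 fold changes of 6j over non-treated cells (points, with bars of ± 1 standard error) for the 43 genes, without a block on the left and with a block for the replicate number on the right. Filled points are genes called, open orange points have an adjusted p under 0.05 and a fold change under 1.5, and dotted lines mark 1.5-fold. The estimates lie in similar places in both panels while the bars are shorter on the right, where 17 points are filled against 1 on the left.

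Of the 5 sensor genes, DDX58 and DHX58 fell with the block and the others had an adjusted p over 0.05 in both edgeR fits of all libraries. With the block and without replicate 1 of both groups, TLR3 was called lower (edgeR log2 fold change −1.17, adjusted p = 0.0461). IFIH1 had an adjusted p of 0.0128 from edgeR in that fit and was not called. DDX58 (RIG-I, chr9:32455705-32526324, strand −), the receptor of short double-stranded RNA with a 5′ triphosphate, had 192, 286 and 87.3 CPM in the non-treated and 126, 126 and 50.3 CPM in the 6j libraries. Replicate 3 was low in both groups, and non-treated replicate 3 lay below 2 of the 6j libraries. For this gene edgeR's log2 fold change was −0.90 (SE 0.607) with an adjusted p of 0.437 without a block and −0.86 (SE 0.106) with an adjusted p of 0.00111 with it. DHX58 (LGP2), a relative of RIG-I that lacks its signalling domains, had 28.6, 28.7 and 11.8 CPM in the non-treated and 19.7, 8.52 and 5.65 CPM in the 6j libraries. The drop was steepest in replicate 2, and the groups overlapped. For DHX58 edgeR's log2 fold change was −1.03 (SE 0.607) with an adjusted p of 0.369 without a block and −1.11 (SE 0.253) with an adjusted p of 0.0352 with it. IFIH1 (MDA5), the receptor of long double-stranded RNA, averaged 184 ± 83.3 CPM in non-treated and 156 ± 71.3 CPM in 6j treated cells (SD, n = 3), with a log2 fold change of −0.25 (edgeR, adjusted p = 0.0692) with the block. MAVS, the mitochondrial adaptor through which RIG-I and MDA5 signal, had 147, 134 and 155 CPM in the non-treated and 149, 149 and 181 CPM in the 6j libraries. It was higher with 6j in all 3 numbers by a small margin, with an edgeR log2 fold change of 0.14 (SE 0.101) with an adjusted p of 0.436 without a block and 0.13 (SE 0.0649) with an adjusted p of 0.155 with it. TLR3, the endosomal receptor of double-stranded RNA, was low at 3.38 ± 2.35 CPM in non-treated and 2.31 ± 1.59 CPM in 6j treated cells (SD, n = 3) and had a log2 fold change of −0.63 (edgeR, adjusted p = 0.183) with the block.

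Among the 6 STAT and IRF factors none was called in a fit of all libraries, and IRF3, IRF1 and IRF7 had an adjusted p under 0.05 with the block, all lower. With the block, IRF7 was called lower without replicate 1 of both groups and IRF9 without replicate 2. IRF3 (chr19:49659569-49665875, strand −), which the sensors activate by phosphorylation and which is made in cells at rest, had 58.9, 65 and 66.4 CPM in the non-treated and 50, 50.2 and 53.9 CPM in the 6j libraries. Its libraries varied little within a group, and the 3 of 6j lay below the 3 without it. For IRF3 edgeR's log2 fold change was −0.30 (SE 0.0843) with an adjusted p of 0.0556 without a block and −0.30 (SE 0.0648) with an adjusted p of 0.00526 with it. IRF1, a factor of interferon gamma responses, had 49.3, 37.8 and 20.4 CPM without and 41.9, 23.3 and 15.3 CPM with 6j and a log2 fold change of −0.44 (edgeR, adjusted p = 0.00685) with the block. IRF7, the factor that amplifies interferon production, had 53.4, 111 and 13.8 CPM without and 51.2, 68.5 and 9.4 CPM with 6j. Its replicates 2 and 3 differed far more than its groups, and the log2 fold change was −0.46 (edgeR, adjusted p = 0.84) without and −0.43 (edgeR, adjusted p = 0.0422) with the block. STAT2 and IRF9 are parts of the complex that binds the ISRE. STAT2 averaged 119 ± 55.4 CPM in non-treated and 92.8 ± 25.9 CPM in 6j treated cells (SD, n = 3), with a log2 fold change of −0.29 (edgeR, adjusted p = 0.0872) under the block. IRF9 had 8.04, 13.8 and 8.96 CPM without and 3.54, 12.9 and 1.4 CPM with 6j, and its 3 numbers differed widely, with a log2 fold change of −1.21 (edgeR, adjusted p = 0.34) with the block. IRF2, which competes with IRF1 for its sites, had 11.1, 11.5 and 8.39 CPM without and 8.85, 10.6 and 9.17 CPM with 6j. Its groups overlapped, and edgeR's log2 fold change was −0.11 (SE 0.166) with an adjusted p of 0.727 without a block and −0.10 (SE 0.137) with an adjusted p of 0.63 with it. IRF9 shares exons on the same strand with AL136295.5, and IRF1 and IRF3 share exon sequence with genes on the opposite strand. Whether the counting used strand is not stated.

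Both genes of the ISG15 system fell with the block. ISG15 (chr1:1001138-1014540, strand +), a ubiquitin-like protein that is attached to other proteins, had 909, 1257 and 371 CPM in the non-treated and 705, 613 and 238 CPM in the 6j libraries. It was below the same-numbered control in each number, and by the most in replicate 2. For ISG15 edgeR's log2 fold change was −0.71 (SE 0.643) with an adjusted p of 0.567 without a block and −0.68 (SE 0.146) with an adjusted p of 0.0399 with it. USP18, the protease that removes ISG15 and also restrains the type I receptor, had 73.2, 116 and 18.7 CPM in the non-treated and 45.1, 46 and 9.72 CPM in the 6j libraries. Replicate 3 was several times below the others in both groups. For USP18 edgeR's log2 fold change was −1.04 (SE 0.94) with an adjusted p of 0.566 without a block and −0.995 (SE 0.119) with an adjusted p of 0.000902 with it, and USP18 was called without each replicate number as well.

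The 9 genes whose products bind or degrade RNA held the largest number of calls, with 6 lower with the block and a median log2 fold change of −0.71. The IFIT genes lie together on chromosome 10 between 89283694 and 89421001 and encode proteins that bind foreign RNA. IFIT1 had 591, 924 and 259 CPM in the non-treated and 399, 406 and 147 CPM in the 6j libraries. IFIT2 had 775, 807 and 322 CPM in the non-treated and 543, 398 and 201 CPM in the 6j libraries. IFIT3 had 638, 835 and 275 CPM in the non-treated and 514, 430.1 and 193 CPM in the 6j libraries. In all 3 genes both groups overlapped, and each 6j library was below its same-numbered control. For IFIT1 edgeR's log2 fold change was −0.90 (SE 0.653) with an adjusted p of 0.469 without a block and −0.86 (SE 0.122) with an adjusted p of 0.00653 with it. For IFIT2 edgeR's log2 fold change was −0.74 (SE 0.539) with an adjusted p of 0.469 without a block and −0.74 (SE 0.0938) with an adjusted p of 0.00136 with it. For IFIT3 edgeR's log2 fold change was −0.62 (SE 0.579) with an adjusted p of 0.575 without a block and −0.59 (SE 0.138) with an adjusted p of 0.042 with it, which is just past the 1.5-fold line. IFIT5, the fourth of the cluster, averaged 60 ± 25.8 CPM in non-treated and 52.2 ± 17.7 CPM in 6j treated cells (SD, n = 3) and had a log2 fold change of −0.17 (edgeR, adjusted p = 0.108) with the block. IFIT2 shares exon sequence with LIPA on the opposite strand.

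The 2′-5′ oligoadenylate synthetases make the messenger that activates RNase L. OAS1, OAS2 and OAS3 lie side by side on chromosome 12 between 112906777 and 113011723. OAS1 had 186, 349 and 66.5 CPM in the non-treated and 145, 186 and 36.1 CPM in the 6j libraries. OAS3 had 534, 984 and 171 CPM in the non-treated and 405, 554 and 103 CPM in the 6j libraries. OAS2 had 303, 590.1 and 74.7 CPM in the non-treated and 169.6, 211 and 21.5 CPM in the 6j libraries. The 3 genes shared the order of replicates 2, 1 and 3 in both groups, and 6j was below in each number. For OAS1 edgeR's log2 fold change was −0.71 (SE 0.904) with an adjusted p of 0.692 without a block and −0.71 (SE 0.114) with an adjusted p of 0.00475 with it. For OAS3 edgeR's log2 fold change was −0.67 (SE 0.932) with an adjusted p of 0.72 without a block and −0.65 (SE 0.0811) with an adjusted p of 0.000571 with it. The estimate of OAS2 was the second lowest of the 43, and edgeR's log2 fold change was −1.27 (SE 1.17) with an adjusted p of 0.575 without a block and −1.36 (SE 0.251) with an adjusted p of 0.0584 with it, so that it was not called. DESeq2 with the block called it, as did edgeR with the block and without replicate 1 or 3 of both groups. OASL, a relative without synthetase activity that binds RIG-I, had 1077, 1074 and 531 CPM in the non-treated and 642, 402 and 240.3 CPM in the 6j libraries. Non-treated replicates 1 and 2 were alike, and the 6j libraries of all 3 numbers were well below their partners. For OASL edgeR's log2 fold change was −1.06 (SE 0.477) with an adjusted p of 0.247 without a block and −1.10 (SE 0.145) with an adjusted p of 0.0105 with it. ISG20, an exonuclease of single-stranded RNA, had 40.7, 56.6 and 19.1 CPM without and 41, 34.8 and 23.8 CPM with 6j and a log2 fold change of −0.13 (edgeR, adjusted p = 0.736) with the block.

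**Figure D4:**
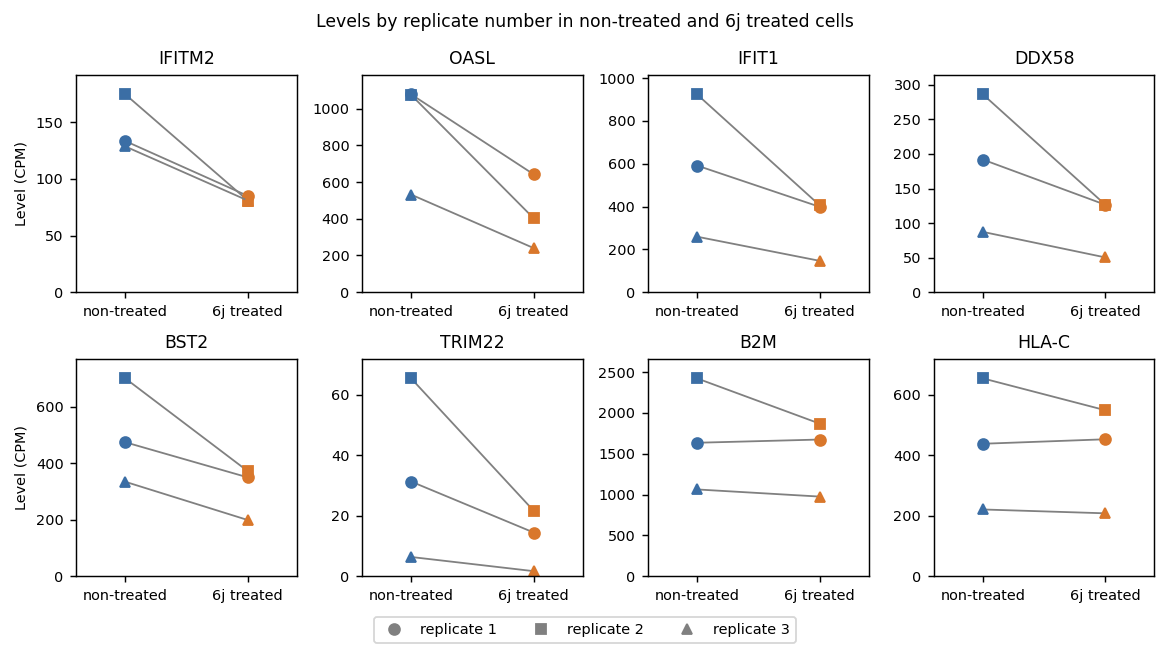
Levels in CPM of 8 genes in non-treated (blue) and 6j treated (orange) cells, with a grey line joining the libraries of 1 replicate number and circles, squares and triangles for replicates 1, 2 and 3. The axis of each panel starts at 0. All 3 lines go down in IFITM2, OASL, IFIT1, DDX58, BST2 and TRIM22, and in B2M and HLA-C, which were not called, the line of replicate 1 goes slightly up.

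Of the 8 membrane proteins and GTPases, IFITM1, IFITM2, IFITM3, BST2 and TRIM22 fell with the block. The IFITM proteins stop viruses from fusing with cell membranes, and their genes lie on chromosome 11 between 307631 and 327537. IFITM2 (chr11:307631-315272, strand +) had 133, 175 and 129 CPM in the non-treated and 84.9, 80.9 and 80.8 CPM in the 6j libraries. The groups did not overlap, and the 6j libraries lay between 80.8 and 84.9 CPM. For IFITM2 edgeR's log2 fold change was −0.82 (SE 0.118) with an adjusted p of 0.00732 without a block and −0.81 (SE 0.0935) with an adjusted p of 0.000383 with it, or 1.77-fold lower without the block. Without 6j replicate 2 the adjusted p from edgeR without a block was 0.05005, and the call was lost. IFITM2 and IFITM1 share exons on the same strand, and the 3 IFITM genes are close paralogs, so the counting could have split or mixed their reads.

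IFITM1 had 483, 969 and 180.0 CPM in the non-treated and 359, 497 and 100.3 CPM in the 6j libraries. IFITM3 had 547, 893 and 343 CPM in the non-treated and 436, 535 and 174 CPM in the 6j libraries. Unlike IFITM2, both spread widely over the replicate numbers, with overlapping groups. For IFITM1 edgeR's log2 fold change was −0.77 (SE 0.899) with an adjusted p of 0.663 without a block and −0.74 (SE 0.104) with an adjusted p of 0.00300 with it. For IFITM3 edgeR's log2 fold change was −0.64 (SE 0.578) with an adjusted p of 0.564 without a block and −0.68 (SE 0.138) with an adjusted p of 0.029 with it. BST2 (tetherin), which holds budding virus at the cell surface, had 474, 699.9 and 334 CPM in the non-treated and 349.7, 372 and 199 CPM in the 6j libraries. The 6j library was the lower of each number. For BST2 edgeR's log2 fold change was −0.71 (SE 0.364) with an adjusted p of 0.295 without a block and −0.70 (SE 0.0863) with an adjusted p of 0.000724 with it. TRIM22, a ubiquitin ligase with antiviral activity, had 31.3, 65.4 and 6.38 CPM in the non-treated and 14.5, 21.7 and 1.69 CPM in the 6j libraries. Its replicates ranged over about an order of magnitude in both groups, and it had the lowest estimate of the 43 genes. For TRIM22 edgeR's log2 fold change was −1.44 (SE 1.24) with an adjusted p of 0.547 without a block and −1.49 (SE 0.14) with an adjusted p of 8.95e-05 with it. TRIM22 shares exons on the same strand with OR56B1.

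MX1 and MX2, dynamin-like GTPases that trap viral nucleoproteins, lie on chromosome 21 between 41361943 and 41459214. MX1 had 2.49, 3.52 and 1.58 CPM in the non-treated and 4.32, 3.57 and 1.46 CPM in the 6j libraries. It was among the lowest genes of the 43 and had the highest estimate. For MX1 edgeR's log2 fold change was 0.30 (SE 0.43) with an adjusted p of 0.711 without a block and 0.25 (SE 0.261) with an adjusted p of 0.538 with it. MX2 had 33, 65.5 and 7.32 CPM in the non-treated and 20.4, 27.7 and 1.63 CPM in the 6j libraries. Each 6j library was below its partner. For MX2 edgeR's log2 fold change was −1.08 (SE 1.27) with an adjusted p of 0.664 without a block and −1.24 (SE 0.31) with an adjusted p of 0.0751 with it. DESeq2 with the block called it lower, as did edgeR with the block and without replicate 1 or 3 of both groups. RSAD2 (viperin), which makes a chain-terminating nucleotide, averaged 260.1 ± 98.7 CPM in non-treated and 212 ± 79.9 CPM in 6j treated cells (SD, n = 3), with a log2 fold change of −0.29 (edgeR, adjusted p = 0.27) with the block. RSAD2 shares exon sequence with CMPK2 on the opposite strand.

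The 6 other interferon-stimulated genes all had lower estimates in each replicate number, and all 6 followed the order of replicates 2, 1 and 3 in both groups. IFI44 was the 1 gene of these called by edgeR with the block, and DESeq2 with the block called IFI27 as well. Without replicate 1 of both groups, edgeR with the block also called IFI27, IFI35, IFI6 and XAF1. IFI44, a cytoplasmic protein with antiviral activity, had 217, 319.9 and 93.6 CPM in the non-treated and 142, 151 and 54.8 CPM in the 6j libraries. It was below its partner in each number, with overlapping groups. For IFI44 edgeR's log2 fold change was −0.86 (SE 0.636) with an adjusted p of 0.478 without a block and −0.82 (SE 0.0873) with an adjusted p of 0.000174 with it. IFI6, a small antiapoptotic membrane protein with the highest level per kb of the 43, had 756, 1682 and 247 CPM in the non-treated and 665, 1212 and 122 CPM in the 6j libraries. Its drop was small in replicate 1 and large in replicate 3, and edgeR's log2 fold change was −0.43 (SE 1.12) with an adjusted p of 0.862 without a block and −0.55 (SE 0.213) with an adjusted p of 0.201 with it. IFI44L, the neighbour of IFI44 on chromosome 1, had 67.2, 148 and 18.3 CPM without and 60.5, 107 and 7.25 CPM with 6j and a log2 fold change of −0.58 (edgeR, adjusted p = 0.323) with the block. IFI27 had 144, 332 and 52.7 CPM without and 113, 208 and 22.7 CPM with 6j and a log2 fold change of −0.73 (edgeR, adjusted p = 0.0799) with the block. IFI35, which was below 1.5-fold but past the adjusted p, had 51.9, 105 and 27.2 CPM without and 47, 59 and 20.2 CPM with 6j and a log2 fold change of −0.47 (edgeR, adjusted p = 0.0396) with the block. XAF1, a proapoptotic gene, had 96.6, 221 and 25 CPM without and 95.1, 141 and 9.46 CPM with 6j and a log2 fold change of −0.64 (edgeR, adjusted p = 0.371) with the block.

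The 7 MHC class I presentation genes had a median log2 fold change of −0.23 with the block, and 1 of them, TAP2, was called. The difference between this median and that of the other roles was not tested. TAP1 and TAP2 form the transporter that carries peptides into the endoplasmic reticulum. TAP2 (chr6:32821833-32838780, strand −) had 134, 194 and 76.5 CPM in the non-treated and 105, 109 and 47.4 CPM in the 6j libraries. It was below its partner in each number, with overlapping groups. For TAP2 edgeR's log2 fold change was −0.63 (SE 0.495) with an adjusted p of 0.504 without a block and −0.62 (SE 0.0883) with an adjusted p of 0.000835 with it. TAP1 had 129.6, 202 and 57.3 CPM without and 106, 119 and 46.1 CPM with 6j and a log2 fold change of −0.46 (edgeR, adjusted p = 0.00779) with the block, past the adjusted p and below 1.5-fold. HLA-C, a class I heavy chain, had 438, 654 and 221 CPM in the non-treated and 453, 549 and 208 CPM in the 6j libraries. Replicate 1 was slightly higher and replicates 2 and 3 slightly lower with 6j, and edgeR's log2 fold change was −0.12 (SE 0.562) with an adjusted p of 0.928 without a block and −0.10 (SE 0.0647) with an adjusted p of 0.307 with it. HLA-B, the other classical heavy chain of the 43, had 324, 594 and 131 CPM without and 334, 446 and 103 CPM with 6j and a log2 fold change of −0.23 (edgeR, adjusted p = 0.0847) with the block. HLA-E, the ligand of an inhibitory receptor of natural killer cells, had 139.8, 248 and 83 CPM without and 128, 157 and 88.9 CPM with 6j and a log2 fold change of −0.23 (edgeR, adjusted p = 0.39) with the block. B2M had 1635, 2423 and 1063 CPM without and 1674, 1869.7 and 976 CPM with 6j and a log2 fold change of −0.15 (edgeR, adjusted p = 0.159) with the block. TAPBP (tapasin), which holds class I on the transporter, had 180.4, 227 and 151 CPM in the non-treated and 203, 199 and 157 CPM in the 6j libraries. Its groups were interleaved, and edgeR's log2 fold change was 0.00 (SE 0.159) with an adjusted p of 0.999 without a block and 0.01 (SE 0.0743) with an adjusted p of 0.933 with it. The sign of TAPBP turned with RLE size factors and with DESeq2. HLA-B and HLA-C share exons on the same strand and are polymorphic paralogs, TAP2 shares exons with AL669918.1, and their counts are uncertain to that extent.

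A split by promoter leaves out the genes with no window. Among these are DHX58, IFIT2, IFITM2, OASL, TRIM22 and USP18, all called with the block, and OAS2 and MX2. The 21 genes with an ISRE core in a window had a median log2 fold change of −0.59 with the block, 19 of them lower and 9 called. The 10 genes with a window but no core had a median of −0.46, with 9 lower and 2 called, the latter DDX58 and OAS1. Here no core means only no match to GAAANNGAAA. The windows of DDX58, OAS1 and XAF1 hold GAAACGAAA and that of IFI35 holds GAAATGAAA, which the search did not count. These are descriptions of small sets, and their difference was not tested. Of the 5 genes with printed sequences, ISG15, IFITM1, BST2 and IFITM3 were called with the block and IFI6 was not.

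Other genes of the pathway were taken from 8 lists, of which 124 genes were in the table and 98 were tested. Without a block 2 of the 98 were called, CXCL10 and GBP4, both lower, and 2 genes had an adjusted p under 0.05 in the higher and 5 in the lower direction. With the block 20 were called, all lower, and 40 had an adjusted p under 0.05 in the lower and 4 in the higher direction. Over all rows, 1.12% and 2.46% were called lower in these fits. The plot of the lists shows where the lower genes lay.

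**Figure D5:**
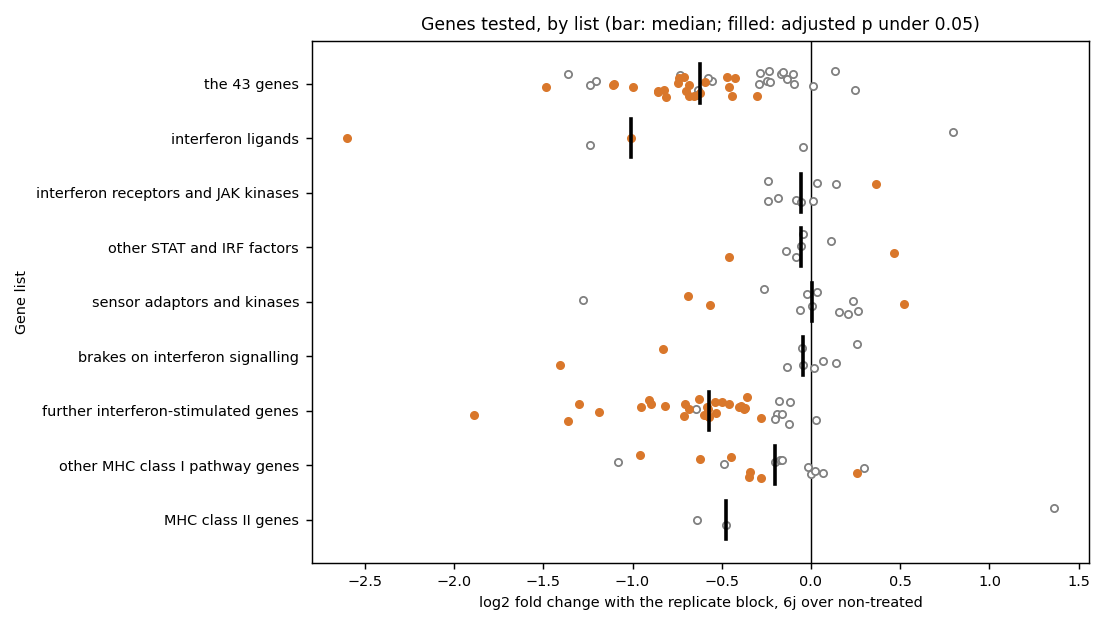
edgeR's log2 fold change with the replicate block for each tested gene of the 43 and of 8 lists of other pathway genes. Filled points have an adjusted p under 0.05, bars are medians, 0 is no difference, and the vertical scatter within a list is for display. The median is −0.62 for the 43 genes, −0.57 for the further interferon-stimulated genes, −1.01 for the 5 ligands tested, −0.48 for the 3 MHC class II genes tested and −0.20 for the other MHC class I genes. Those of the receptors and JAK kinases, the other STAT and IRF factors, the sensor adaptors and the brakes lie near 0.

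Of 12 interferon ligand genes, 5 were tested and the other 7 did not exceed 0.316 CPM in any library. IFNL1, a type III interferon, had 4.3, 3.05 and 2.15 CPM without and 3.1, 1.45 and 0.699 CPM with 6j, and its log2 fold change was −0.85 (edgeR, adjusted p = 0.332) without and −1.01 (edgeR, adjusted p = 0.0218) with the block. IFNL2 had 0.69, 0.508 and 0.661 CPM without and 0.156, 0.159 and 0 CPM with 6j, and a log2 fold change of −2.50 (edgeR, adjusted p = 0.0725) without and −2.60 (edgeR, adjusted p = 0.0309) with the block. Both are close paralogs of IFNL3, were chosen after their values were seen, and rest on few counts. IFNB1, the type I interferon of non-immune cells, had 0.637, 0.698 and 0.718 CPM without and 1.17, 1.72 and 0.815 CPM with 6j and a log2 fold change of 0.80 (edgeR, adjusted p = 0.185) with the block. None of the 9 receptor and JAK genes was called. IFNAR1, 1 chain of the type I receptor, had 44.5, 44.6 and 50.8 CPM without and 43.9, 47.1 and 52.4 CPM with 6j and a log2 fold change of 0.03 (edgeR, adjusted p = 0.871) without the block. IFNAR2, the other chain, had 15.3, 18.5 and 15.7 CPM without and 13.9, 13.8 and 14.1 CPM with 6j and a log2 fold change of −0.24 (edgeR, adjusted p = 0.241). TYK2, the kinase bound to IFNAR1, had 129, 126 and 111 CPM without and 127, 115 and 111 CPM with 6j and a log2 fold change of −0.06 (edgeR, adjusted p = 0.741). JAK1, the kinase bound to IFNAR2, had 120.5, 129 and 109.9 CPM without and 138, 168 and 157 CPM with 6j. Every 6j library was above every non-treated library, and the log2 fold change was 0.37 (edgeR, adjusted p = 0.0514) without and 0.36 (edgeR, adjusted p = 0.00358) with the block.

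Among the 7 tested genes of the other STAT and IRF factors, IRF2BP2, a corepressor that binds IRF2, rose, with 147, 157 and 143 CPM without and 185, 222 and 212 CPM with 6j and a log2 fold change of 0.47 (edgeR, adjusted p = 0.0169) without the block. Of the 13 tested sensor adaptors and kinases, TRIM25, the ubiquitin ligase that activates RIG-I, rose, with 191, 232 and 178 CPM without and 260.0, 318 and 280.2 CPM with 6j and a log2 fold change of 0.51 (edgeR, adjusted p = 0.0304). IKBKE, a kinase of IRF3, fell, with 12, 11.2 and 9.42 CPM without and 7.0, 7.35 and 7.57 CPM with 6j and a log2 fold change of −0.57 (edgeR, adjusted p = 0.0467). Both changes were below 1.5-fold. Without the block, the adjusted p of IRF2BP2 was over 0.05 without non-treated replicate 1 or 3 or 6j replicate 2, that of TRIM25 without these or 6j replicate 3, and that of IKBKE without any 1 library. TMEM173 (STING), the adaptor of DNA sensing, was named after its values were seen and was called lower with the block alone, with a log2 fold change of −0.70 (edgeR, adjusted p = 0.114) without and −0.69 (edgeR, adjusted p = 0.0343) with it. Of the 9 tested brakes on interferon signalling, 2 were called lower with the block and none without it. UBA7 had a log2 fold change of −1.47 (edgeR, adjusted p = 0.424) without and −1.41 (edgeR, adjusted p = 0.00162) with the block. PTPN6 had a log2 fold change of −0.83 (edgeR, adjusted p = 0.0952) without and −0.83 (edgeR, adjusted p = 0.044) with the block. Both were named after their values were seen. UBA7 was listed among the brakes but is known as the activating enzyme of ISG15.

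The further interferon-stimulated genes were the largest list. Of 35 tested, 34 had lower estimates without a block, and with it 27 had an adjusted p under 0.05, all lower, with log2 fold changes from −1.89 to −0.28, and 13 were called. CXCL10, a chemokine that draws T cells, had 10.7, 8.79 and 9.51 CPM in the non-treated and 5.23, 3.49 and 3.23 CPM in the 6j libraries. The groups did not overlap. For CXCL10 edgeR's log2 fold change was −1.28 (SE 0.217) with an adjusted p of 0.0117 without a block and −1.30 (SE 0.167) with an adjusted p of 0.000237 with it. The call without a block was lost without non-treated replicate 1 and without 6j replicate 2. GBP4, a guanylate-binding GTPase, had 4.78, 3.43 and 2.84 CPM in the non-treated and 1.69, 1.4 and 1.16 CPM in the 6j libraries. The groups did not overlap, and for GBP4 edgeR's log2 fold change was −1.37 (SE 0.291) with an adjusted p of 0.0226 without a block and −1.36 (SE 0.247) with an adjusted p of 0.00203 with it. Its call without a block was lost without non-treated replicate 1 or 2 and without 6j replicate 2 or 3. Of the 17 tested genes in the rest of the MHC class I pathway, RFX5 and RFXANK, subunits of a factor that binds MHC promoters, fell by less than 1.5-fold. RFX5 had 134, 132 and 128 CPM without and 108, 101 and 101 CPM with 6j and a log2 fold change of −0.34 (edgeR, adjusted p = 0.0241), and RFXANK had 32.1, 33.1 and 35.1 CPM without and 27.2, 26.6 and 24.9 CPM with 6j and a log2 fold change of −0.35 (edgeR, adjusted p = 0.0488). The adjusted p of RFX5 was over 0.05 without any 1 library but 6j replicate 1, and that of RFXANK without any 1 library. NLRC5, the transactivator of MHC class I genes, had 45.5, 72.2 and 31.7 CPM without and 44.6, 58.4 and 26.2 CPM with 6j and a log2 fold change of −0.21 (edgeR, adjusted p = 0.814), or −0.20 (edgeR, adjusted p = 0.0826) with the block. PSMB10 and PSME2, an immunoproteasome and a proteasome activator subunit named after their values were seen, were called lower with the block, with log2 fold changes of −0.96 (edgeR, adjusted p = 0.000255) and −0.62 (edgeR, adjusted p = 5.52e-05). Without it these were −0.95 (edgeR, adjusted p = 0.0617) and −0.61 (edgeR, adjusted p = 0.105), and neither was called. Of the 10 MHC class II genes, 3 were tested and none was called by edgeR. CIITA, the class II transactivator, named after its values were seen, had 6.32, 2.41 and 6.03 CPM without and 10.6, 15.6 and 10.7 CPM with 6j and a log2 fold change of 1.31 (edgeR, adjusted p = 0.0569) without and 1.36 (edgeR, adjusted p = 0.191) with the block, and DESeq2 without a block called it higher.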

How the data were processed

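RNA of MHCC-97H cells was enriched for mRNA with oligo(dT) beads, and the authors deposited a table of counts per gene in whole numbers, 1 column for each of the 6 libraries, without normalization. Whether these are reads or rounded estimates is not given in the sources used here, and counts of 1 were rarer than counts of 2 (175 against 557 rows in non-treated replicate 1). The labels name GRCh38, HISAT2 and StringTie, without versions. The counting program, the annotation and the use of strand are not given in the sources used here. Coordinates, exon lengths and shared exons were read from GENCODE version 29, which held every Ensembl identifier of the table (19974).

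TMM factors were computed after filterByExpr, and robust quasi-likelihood models were fitted in edgeR 4.0.16 (R 4.3.3, limma 3.58.1), with Benjamini-Hochberg adjustment over the 15957 rows tested. Calls needed an adjusted p under 0.05 and a fold change over 1.5. Standard errors given for edgeR were derived, as the absolute log2 fold change over the square root of the test's F statistic. Log2 CPM values had a prior count of 2. DESeq2 1.42.0 served as the other tool. The scripts were tested on simulated data. The simulated replicate effects were smaller than those of the 43 genes, so the simulation does not cover the spread seen in them. Precision is limited by depth, 31533403 to 38018349 counts in a library, by 3 libraries a group and by the spread between libraries. For the 43 genes the median standard error was 0.61 without the block and 0.12 with it, against 0.14 and 0.10 over all rows.

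Groups followed the labels. The main fit had no covariate. Same-numbered libraries deviated from their group means together (correlations over all rows of 0.171, 0.180 and 0.312, against −0.231 to 0.0795 for other pairs), so the numbers were taken to pair the libraries, and the fit with the replicate number as a block is given beside each result whose call it changed. Deviations cancel out within a group, so this contrast between like and unlike numbers is partly built in. With 3 libraries a group, such a match of numbers could also arise by chance. Pairing thus rests on the data, since no source says what a number marks.

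The genes and lists were chosen with earlier results of these data known. Full values were set by rule for genes with an adjusted p under 0.05, genes called with the block or by DESeq2, the 5 highest and 5 lowest log2 fold changes, the 5 highest levels per kb, a fixed set of pathway genes, 1 of which is not reported here, and pathway genes with an adjusted p under 0.05. Protein sequences of the IFITM genes, which the rule also named, are not shown. No column was left out.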

Additional observations from a re-analysis of the deposited data

How the results depend on the processing

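The count of the 43 genes called (1 without a block) was 17 with the replicate block, 20 by DESeq2 with the block, and 25, 13 and 14 with the block and without replicates 1, 2 and 3 of both groups. Leaving out 1 library without a block gave 0 to 1, with 0 without 6j replicate 2. With an adjusted p under 0.05 alone, the count of 1 became 2 by DESeq2, 22 with the block, 28 by DESeq2 with the block and 31, 18 and 22 in the block fits without replicates 1, 2 and 3, and 0 to 1 with 1 library left out. Of all rows, 9.16% had an adjusted p under 0.05 without a block and 26.9% with it by edgeR, in either direction. The shares of all rows in the other fits are not given here, so these counts cannot be set against them. RLE size factors, no filter on low counts and DESeq2 left 1 gene called, IFITM2. Of the 98 pathway genes, 2 were called, against 6 by DESeq2, 11 at an unadjusted p, 20 with the block, 19 by DESeq2 with the block, 24, 11 and 16 in the block fits without replicates 1, 2 and 3, and 0 to 3 with 1 library left out. All rows called numbered 574, against 1033 with the block, 868 by DESeq2 with the block and 1136 at an unadjusted p. With the block and without replicates 1, 2 and 3 they numbered 1049, 705 and 867. With 1 library left out and no block they numbered 186 to 772.

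The median log2 fold change of the 43 genes was −0.54, and −0.78 with the block and without replicate 1. With 1 library left out it ran from −0.91 without non-treated replicate 3 to −0.0414 without non-treated replicate 2, where 24 of the 43 genes had lower estimates, and it was −0.84 without 6j replicate 2 and −0.21 without 6j replicate 3. Some estimates changed sign with 1 library left out and no block. Among genes without full values set by rule, IFI44L ran from −1.19 to 0.44 and XAF1 from −1.12 to 0.43. HLA-B ran from −0.67 to 0.37 and IRF7 from −0.96 to 0.36, and further genes of the 43 also changed sign. The genes with full values set by rule follow. With 1 library left out, OAS3 ran from −1.15 to 0.0057, MX1 from −0.0059 to 0.64, TAPBP from −0.13 to 0.17, HLA-C from −0.44 to 0.29, IFI6 from −1.18 to 0.41, IFNAR1 from −0.0365 to 0.10 and NLRC5 from −0.49 to 0.16. TAPBP was −0.0006 by DESeq2, −0.0004 with RLE size factors, and −0.0694 and −0.0128 with the block and without replicates 1 and 3. With the block and without replicate 1, MX1 was −0.0454 and IRF2 0.0064. Fits without 1 replicate number have 2 libraries a group. Over single genes, 413 of the other values kept their direction and their side of the threshold, 79 passed it newly and 7 lost it. Of the genes named with 1 of the 2 edgeR fits, the block changed no call. Every count of the 43 genes was 18 or more, and 3 libraries a group limit what the fits can show.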
